A study of Mus musculus with 12 samples.

Results

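Telomerase is the enzyme that adds telomere repeats to chromosome ends, and 10 genes of its protein machinery were followed here across the livers and liver tumors of aged mice. The genes were chosen by symbol as the catalytic subunit Tert, the H/ACA core proteins Dkc1, Nop10, Nhp2 and Gar1, and the biogenesis and holoenzyme factors Naf1, Wrap53, Parn, Tep1 and Ruvbl1. All 10 were found among the 24421 gene symbols of the count tables. RNA-seq of poly(A) RNA had been performed on 12 libraries, namely 4 livers and 4 tumors labelled p21Tert and 2 livers and 2 tumors labelled p21TertCi. The study also sequenced further p21TertCi tumors, all named carcinomas, and a neoplasm of a wild-type mouse, which are not among these 12 libraries. Mice of both genotypes were on a standard diet and carried a Tert cassette, with an mCherry reporter, knocked in at 1 copy of Cdkn1a, the gene of the cell cycle inhibitor p21. In p21Tert mice the cassette encodes wild-type Tert and in p21TertCi mice a catalytically inactive Tert. No library of a mouse without a knock-in was analysed here, and mCherry is not among the symbols, so reads of the knock-in and of the endogenous Tert gene cannot be told apart in any library. The cassette is driven in whatever cells use the p21 promoter. The non-tumoral livers came from the tumor-bearing mice. Libraries are called L (liver) or T (tumor) with the mouse number of the labels. L961 is numbered so in the labels, whereas its deposited table carries the number of T662. Wherever all 6 mice are counted, blocked or summed, L961 is taken as the liver of T662. The study reports activating Ctnnb1 mutations in T662 and T663, an Egfr mutation in T941 and an activating Hras mutation in T981. It names T992 and T984 as adenomas and the others as carcinomas, although its histology also gives T663 as an adenoma.

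Tert copies the template of the telomerase RNA Terc into telomere DNA. Terc carries an H/ACA domain, and the proteins dyskerin (Dkc1), Nop10 and Nhp2, first together with the assembly factor Naf1 and then with Gar1, bind and stabilise it as they do the other H/ACA RNAs, which guide pseudouridylation of ribosomal and spliceosomal RNA. Adult hepatocytes are mostly quiescent, and activation of TERT through promoter mutations is a frequent early event in human hepatocellular carcinoma.

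The libraries held 14571716 to 26170661 counts, and counts were scaled to counts per 1000000 (CPM) with the TMM method. The members had 46 to 1573 counts per library and none was at 0 in any library. All 8 hepatocyte markers were counted in all 12 libraries. The summed CPM of these markers was 54961 to 71002 in livers and 26414 to 138100 in tumors. The 6 other marker lists (T cells, B cells, macrophages, endothelium, bile duct, stellate cells with fibroblasts) were also detected throughout, and single markers were at 0 in some libraries, including Cd3e in L941, Ms4a1 in L984, T663 and T984, and Krt19 with Krt7 in T981. In bulk tissue, fewer cells of a type and less RNA per cell cannot be told apart.

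The knock-in places Tert under the promoter of Cdkn1a, so the sequences before both start sites are shown, together with that of Gar1, the member with the highest fold change between the genotypes in tumors. RefSeq (GRCm38.p6) gave a start for 8 of the 10 members, and Naf1, Tep1 and Terc had no entry. The 250 bases before the start are written 5′ to 3′ on the gene's strand, in lower case, with each GC box (GGGCGG or CCGCCC, the motif of Sp1 family factors) in capitals. They lie at chr13:73626661-73626910 (+) for Tert, at chr17:29093519-29093768 (+) for the downstream start of Cdkn1a and at chr3:129831397-129831646 (-) for Gar1.
Tert: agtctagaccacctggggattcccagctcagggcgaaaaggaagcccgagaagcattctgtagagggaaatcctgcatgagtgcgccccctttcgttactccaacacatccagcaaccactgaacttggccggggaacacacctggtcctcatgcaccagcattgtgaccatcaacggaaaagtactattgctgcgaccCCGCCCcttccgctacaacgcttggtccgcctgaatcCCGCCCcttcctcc
Cdkn1a: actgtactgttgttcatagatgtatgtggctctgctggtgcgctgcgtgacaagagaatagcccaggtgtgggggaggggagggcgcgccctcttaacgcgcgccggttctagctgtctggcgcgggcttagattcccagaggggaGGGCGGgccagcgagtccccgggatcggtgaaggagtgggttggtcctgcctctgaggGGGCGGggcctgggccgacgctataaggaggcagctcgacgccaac
Gar1: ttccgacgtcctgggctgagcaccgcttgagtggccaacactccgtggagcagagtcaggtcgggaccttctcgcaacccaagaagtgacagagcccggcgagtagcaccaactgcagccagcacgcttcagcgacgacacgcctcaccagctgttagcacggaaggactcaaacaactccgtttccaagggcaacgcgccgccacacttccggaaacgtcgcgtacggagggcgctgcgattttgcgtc
The Tert window held 2 GC boxes, which begin 51 and 14 bases before the start. The window of the downstream Cdkn1a start held 2, beginning 104 and 46 bases before it, and that of the upstream start (chr17:29090729-29090978), next to the annotated start of the gene, held 0. None was in the Gar1 window. Of all 32851 RefSeq promoter windows of this length, 32.7% held at least 1 GC box and 16.7% held 2 or more. Among the 8 members with an entry, 3 had a GC box, namely Tert with 2, Nhp2 with 3 and Parn with 1. The E-box bound by Myc (CACGTG, the same on both strands) was in 6.02% of all windows and in 1 member, at the upstream start of Wrap53. A match describes these letters only and says nothing about binding.

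**Figure D1:**
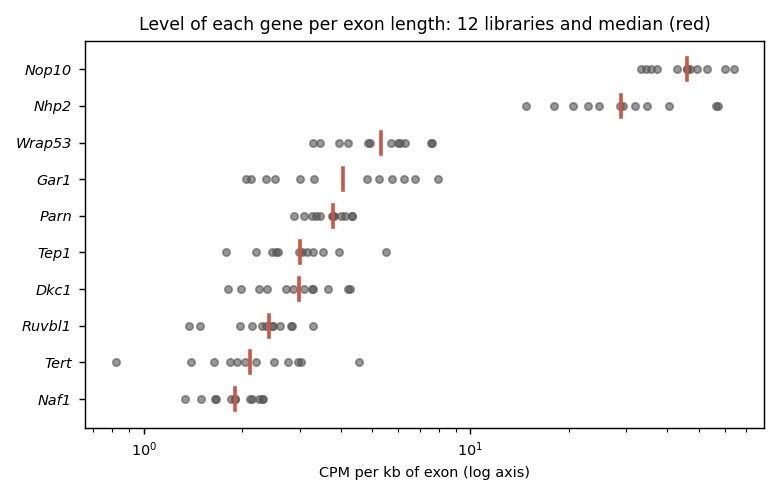
Level of each member in CPM per kilobase of annotated exon (log axis), with 1 dot per library (12 libraries) and the median as a red bar. Nop10 and Nhp2 stand above the other 8, whose ranges overlap with their neighbours.

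Per length of exon, the small H/ACA proteins were the most abundant transcripts of the group. The median over 12 libraries was 46.1 CPM per kb (range 33.4 to 63.9) for Nop10 and 29.0 CPM per kb (14.8 to 57.3) for Nhp2. Nop10 was above Nhp2 in 10 of 12 libraries, and the ranges overlapped. Nhp2 was above Wrap53, next in order with a median of 5.33 CPM per kb, in all 12 libraries, without overlap. The rest followed closely. Their medians were 4.07 for Gar1, 3.78 for Parn, 3.02 for Tep1, 2.98 for Dkc1, 2.41 for Ruvbl1, 2.12 for Tert and 1.90 for Naf1, all in CPM per kb, and each range overlapped that of its neighbour. By this median Tert was next to last, but it was above Naf1 in 7 of 12 libraries and above Ruvbl1 in 6 of 12. The order also differed between groups, and in p21TertCi tumors Tert, with a mean of 2.86 CPM per kb, stood above Dkc1 (2.56), Gar1 (2.21), Naf1 (1.89) and Ruvbl1 (1.43).

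**Figure D2:**
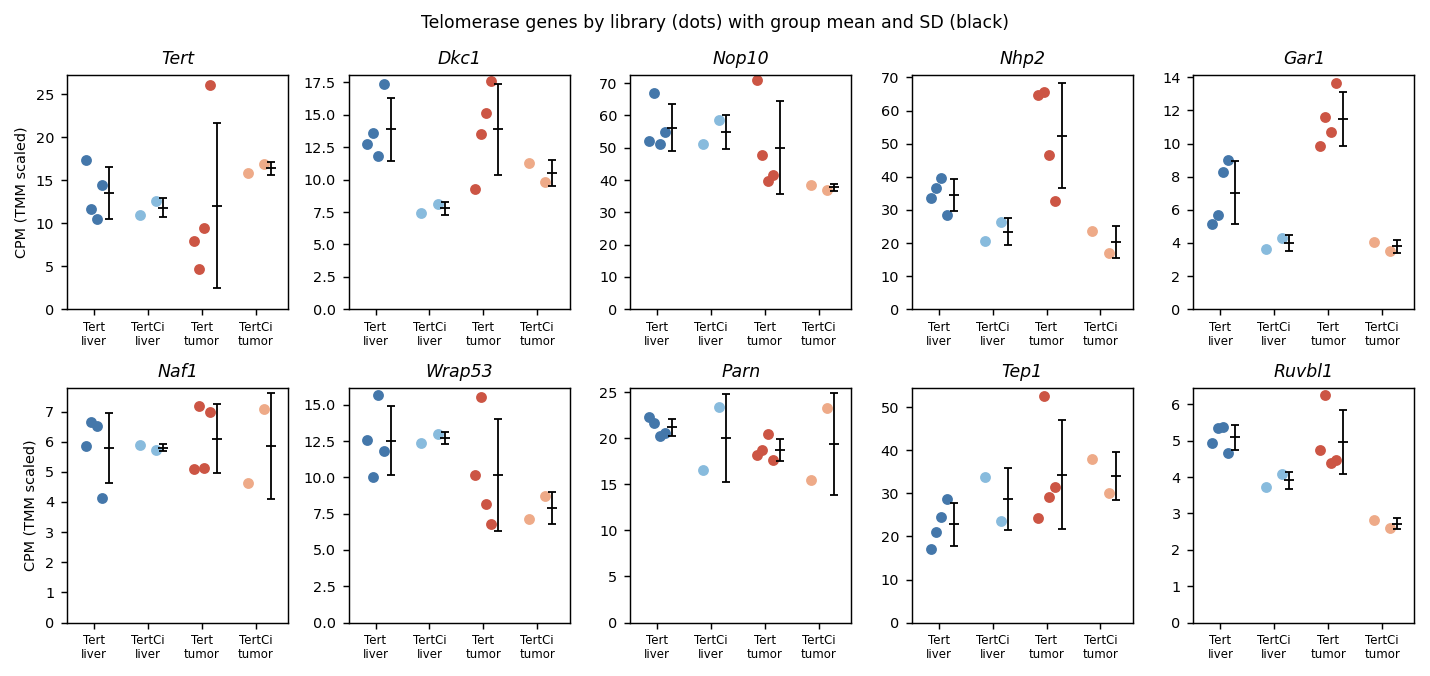
CPM of the 10 members in each library (dots), by genotype and tissue, with the group mean and SD in black (n = 4 for p21Tert, n = 2 for p21TertCi). Gar1 was lowest in the 4 p21TertCi libraries, and Tert in p21Tert tumors ran from 4.69 to 26.1 CPM.

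Tert, the catalytic subunit (chr13:73626911-73649843, GENCODE M21), had overlapping levels in the livers of both genotypes and was scattered in the p21Tert tumors. In p21Tert livers its level was 17.3 CPM in L961, 11.7 in L663, 10.5 in L941 and 14.4 in L992. The p21TertCi livers L981 and L984, at 11.0 and 12.6 CPM, fell inside that range. Among p21Tert tumors, Tert was at 7.98 CPM in T662, 4.69 in T663, 9.39 in T941 and 26.1 in T992, which held both the lowest and the highest value of the series. The p21TertCi tumors T981 and T984 were close together, at 15.8 and 16.9 CPM, above both livers of their genotype. Between these tumors and livers 43.7% of all genes were without overlap. The lowest levels were in T663 and T662, the Ctnnb1-mutated tumors. Among tumors the highest were in T992 and T984, which the study names adenomas and reports as high in Tert mRNA. The carcinoma T981 was close to T984. The study reports loss of the endogenous Tert locus in many of its tumors, without naming them in its text. The part of the Ctnnb1 mutations, of the tumor type or of this loss in the Tert levels was not tested.

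Tumors as a group did not differ from livers in Tert beyond the spread. The log2 fold change of all 6 tumors against all 6 livers was 0.06 ± 0.34 (SE), with a 95% interval from -0.68 to 0.80 (edgeR quasi-likelihood test, adjusted p = 0.933). Within p21Tert mice it was -0.17 ± 0.44 (adjusted p = 0.850), or -0.90 without T992 (adjusted p = 0.0970), and within p21TertCi mice 0.45 ± 0.62 (adjusted p = 0.837). The sign of the first value turned to -0.24 without T992, to -0.02 without T984 and to -0.12 with the mouse as a block, and within p21Tert mice it turned to 0.10 without T663 and to 0.13 without the pair of T662 and L961. Taken mouse by mouse, with L961 set beside T662, Tert was higher in the tumor in 3 of 6 mice, and the fold ranged from 0.402 to 1.81. Between genotypes, Tert differed by -0.45 ± 0.53 on the log2 scale in tumors (p21Tert against p21TertCi, edgeR adjusted p = 0.748), with an interval from -1.61 to 0.71.

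**Figure D3:**
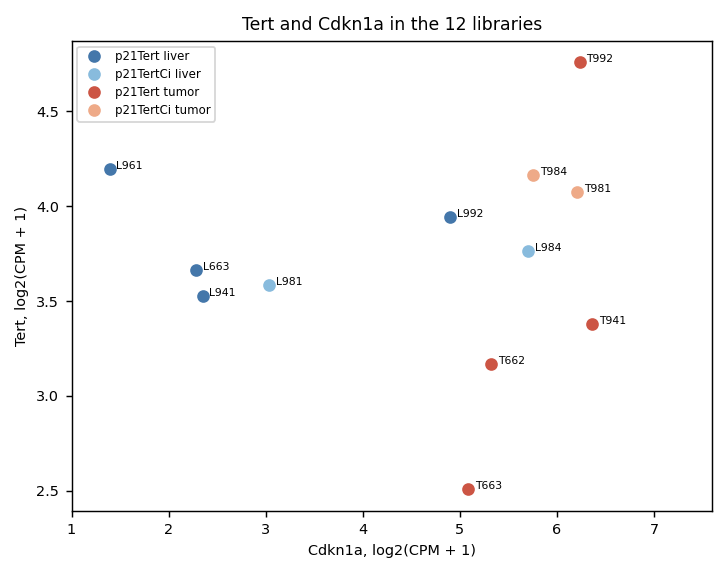
Tert against Cdkn1a in the 12 libraries, both as log2(CPM + 1), colored by genotype and tissue. The tumors sit at 32.9 CPM of Cdkn1a or more, whereas Tert takes low and high values among them.

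Because the cassette lies under the p21 promoter, Tert was set against Cdkn1a (chr17:29090976-29100727). Cdkn1a was at 1.62 CPM in L961, 3.87 in L663, 4.10 in L941, 28.8 in L992, 7.18 in L981 and 51.1 in L984. In tumors it was at 38.9 CPM in T662, 32.9 in T663, 81.0 in T941, 74.2 in T992, 72.8 in T981 and 52.8 in T984. It was higher in the tumor in 6 of 6 mice, yet the livers ranged widely, and the log2 fold change of 1.85 ± 0.70 did not pass the test (edgeR adjusted p = 0.111). Across the 6 tumors, Pearson's r of Tert and Cdkn1a was 0.71 (exact permutation p = 0.118, adjusted over 2 relations 0.236) and Spearman's rho was 0.60 (exact permutation p = 0.242, adjusted 0.483). Without tumors T662 and T663, the farthest from the median of Cdkn1a, r was -0.27, so the positive sign rests on these tumors. Across the 6 livers r was -0.07 (exact permutation p = 0.892, adjusted 0.892) and rho was -0.09 (exact permutation p = 0.919, adjusted 0.919), and without livers L984 and L992 r was -0.86. The liver sign turned to 0.77 without L961 (exact permutation p = 0.15, two-sided like the others). Over all 12 libraries Cdkn1a ranked 6877 of 15181 genes by likeness to Tert, with r = 0.05. The 5 genes most like Tert by Pearson's r of log2(CPM + 1) were Lppr3 (r = 0.91), Ate1 (0.89), Vcl (0.88), Maml1 (0.87) and Dnajc16 (0.87), which share with Tert the 12 libraries and are given as a description. None of them was among the 5 most like Tert by Spearman's rho, but Lppr3 ranked 6 by rho. Its rho of 0.902 equalled that of Armcx1, the last of those 5. By rho Ate1 ranked 58, Dnajc16 83, Maml1 206 and Vcl 224 of 15181 genes.

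Gar1 (chr3:129824912-129831396), which replaces Naf1 in the mature H/ACA particle, showed the clearest pattern of the group. In p21Tert tumors it was at 9.87 CPM in T662, 11.6 in T663, 10.7 in T941 and 13.7 in T992, and in p21TertCi tumors at 4.06 in T981 and 3.52 in T984. In livers it was at 5.16, 5.67, 8.27 and 9.02 CPM in p21Tert mice (L961, L663, L941 and L992) and at 3.65 and 4.31 CPM in p21TertCi mice (L981 and L984). The genotypes did not overlap in either tissue, as was seen for 17.3% of all genes in tumors and 16.1% in livers. Within p21Tert mice every tumor lay above every liver, and 15.4% of all genes were without overlap there. Gar1 counts were 62 to 381 per library, the lowest being in the p21TertCi tumors.

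Nhp2 (chr11:51619735-51623714), a core H/ACA protein, followed the same order between genotypes. Its level was 64.8 CPM in T662, 65.7 in T663, 46.4 in T941 and 32.8 in T992, against 23.7 and 17.0 CPM in the p21TertCi tumors T981 and T984. The p21Tert livers L961, L663, L941 and L992 had 33.6, 36.6, 39.7 and 28.4 CPM, and the p21TertCi livers L981 and L984 had 20.6 and 26.3 CPM. The groups of the 2 genotypes did not overlap in liver or in tumor, as was seen in the same direction in both for 3.76% of all genes. Dyskerin, the pseudouridine synthase encoded by Dkc1 (chrX:75095854-75109777), was at 12.7, 13.6, 11.8 and 17.4 CPM in the p21Tert livers L961, L663, L941 and L992 and at 7.44 and 8.14 CPM in the p21TertCi livers. In tumors its groups overlapped, with 9.28 to 17.6 CPM in p21Tert and 9.83 and 11.2 CPM in p21TertCi. The study reports a gain on chromosome X in T663 and T941 and losses on it in some other tumors. Their part in the Dkc1 levels was not tested. Ruvbl1 (chr6:88465409-88497572), an AAA+ ATPase needed for assembly of the telomerase particle, was at 4.37 to 6.27 CPM in p21Tert tumors and 2.82 and 2.61 CPM in p21TertCi tumors. Its livers had 4.67 to 5.38 and 3.74 to 4.07 CPM, also without overlap. The last core protein, Nop10 (chr2:112261926-112263269), did not overlap in tumors, at 39.6 to 70.9 against 37.0 to 38.4 CPM, and overlapped in livers.

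**Figure D4:**
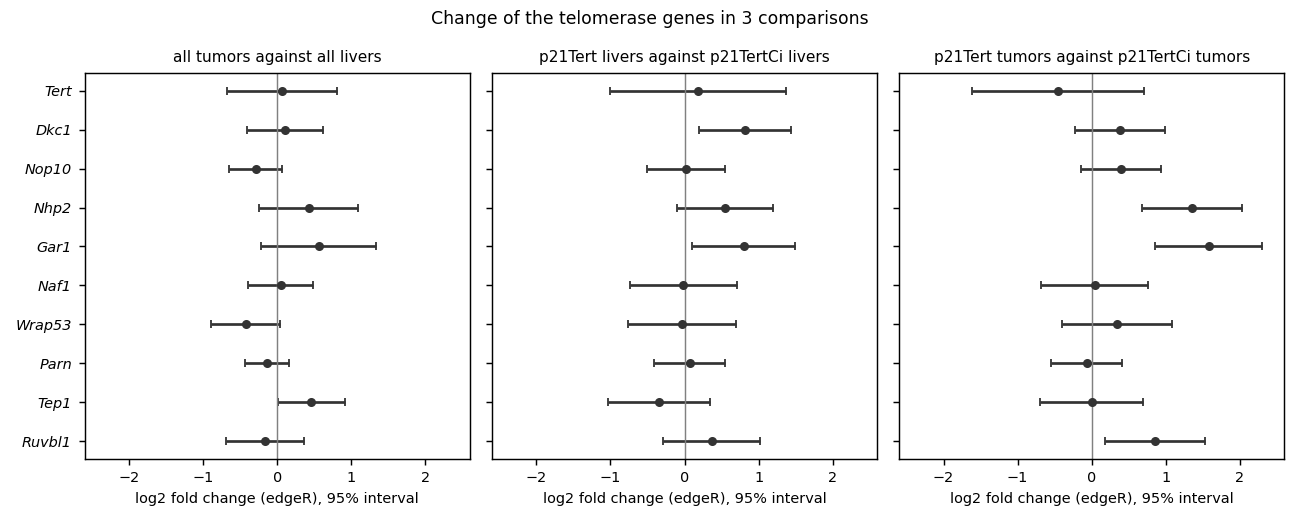
Log2 fold change of each member (dot) with its 95% interval (edgeR) for all tumors against all livers, and for p21Tert against p21TertCi in livers and in tumors. The intervals of Gar1, Nhp2 and Ruvbl1 lie above 0 in the comparison of tumors, and those of Gar1 and Dkc1 in the comparison of livers.

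For tumors, the log2 fold change of p21Tert against p21TertCi was 1.58 ± 0.33 (SE) for Gar1, with a 95% interval from 0.86 to 2.30 (edgeR adjusted p = 0.213). It was 1.35 ± 0.31 for Nhp2 (interval 0.68 to 2.03, adjusted p = 0.214) and 0.85 ± 0.31 for Ruvbl1 (interval 0.18 to 1.52, adjusted p = 0.361). None of the 10 members passed an adjusted p of 0.05 by edgeR, as did none of the 15182 genes tested (0%). At an unadjusted p under 0.05 there were 3 members, these same genes, beside 11.5% of all genes. DESeq2 called 2 members, Gar1 (adjusted p = 0.000359) and Nhp2 (adjusted p = 0.00652), where it called 2.45% of all genes. Groups without overlap were seen for 4 members, all higher in p21Tert, and for 17.3% of all genes. The median log2 fold change was 0.36 over the 10 members and 0.00 over all genes tested. Ctnnb1-mutated tumors (T662 and T663) were only in the p21Tert group, so genotype and driver mutation are mixed in this comparison. The part of each was not tested.

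For livers, the difference between genotypes was 0.80 ± 0.32 for Gar1 (interval 0.11 to 1.50), 0.82 ± 0.29 for Dkc1 (interval 0.19 to 1.44) and 0.54 ± 0.30 for Nhp2 (interval -0.10 to 1.19), each with an edgeR adjusted p = 0.930. No member passed, as did 0% of genes. At an unadjusted p under 0.05 there were 2 members, Gar1 and Dkc1, beside 4.98% of genes, and DESeq2 called 0 members and 0.277% of genes. In livers 4 members did not overlap, all higher in p21Tert, beside 16.1% of genes. Gar1, Nhp2 and Ruvbl1 did not overlap in livers and again in tumors, in the same direction, as did 3.76% of genes, and the 2 tissues come from the same mice. When the counts of both tissues of a mouse were summed, a comparison added after the order in both tissues had been seen, the log2 fold change of 4 p21Tert against 2 p21TertCi mice was 1.29 ± 0.29 for Gar1 and 1.02 ± 0.27 for Nhp2 (edgeR adjusted p = 0.729 for both). In this sum L961 was added to T662, although their labels differ in number. By edgeR 0 members and 0% of genes passed, and at an unadjusted p under 0.05 there were 2 members, Gar1 and Nhp2, beside 6.77% of genes. DESeq2 called 1 member, Gar1 (adjusted p = 0.00445), where it called 0.771% of genes.

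**Figure D5:**
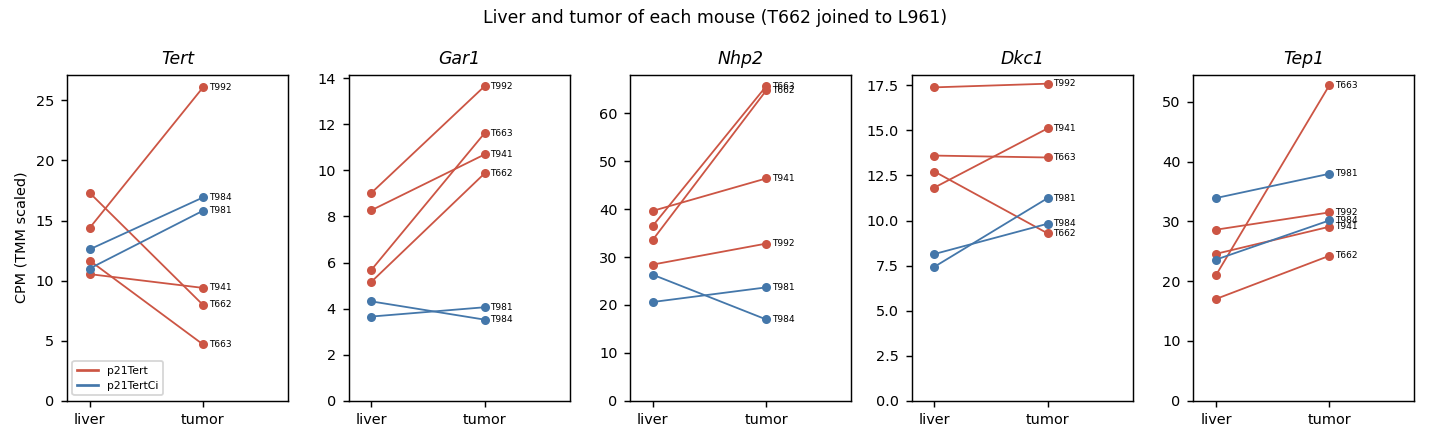
CPM of Tert, Gar1, Nhp2, Dkc1 and Tep1 in the liver and the tumor of each mouse, joined by a line, with p21Tert in red and p21TertCi in blue. Gar1 and Nhp2 lie higher in the tumor of each p21Tert mouse, and Tep1 in the tumor of all 6 mice.

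Marker genes of other kinds were examined beside the genotype difference in tumors. The 10 proliferation genes summed to 120 to 251 CPM in p21Tert tumors and to 36.7 to 98.5 CPM in p21TertCi tumors, and all 10 had a higher fitted level in p21Tert, with a median log2 fold change of 1.81. Among the hepatocyte markers, 8 of 8 had a lower fitted level in p21Tert tumors, with a median log2 fold change of -0.79, and so had 4 of 4 endothelial markers with a median of -0.79. The T cell markers were higher for 5 of 5 (median 0.67) and the B cell markers lower for 4 of 4 (median -1.68), whereas macrophage markers were lower for 4 of 5, bile duct markers higher for 3 of 4, and stellate cell and fibroblast markers split evenly. None of these genes passed the edgeR test between genotypes, as did 0% of all genes, and apart from the proliferation genes the summed levels of the genotypes overlapped. The hepatocyte sum was 44758 CPM in T662 and 26414 in T663, but 124481 in T941 and 126479 in T992, against 138100 and 121106 in the p21TertCi tumors. The B cell sum was 2.43 to 4.56 CPM in p21Tert tumors, 17.7 in T981 and 1.48 in T984. The 3 higher bile duct markers, Krt19, Krt7 and Epcam, had at most 72 counts in a tumor. The fourth, Sox9, had a mean of 14.2 CPM in p21Tert and 39.0 CPM in p21TertCi tumors. The bile duct sum was thus 3.92 to 30.3 CPM in p21Tert tumors and 23.7 to 56.6 CPM in p21TertCi tumors. In livers, where Gar1, Nhp2 and Dkc1 were likewise higher in p21Tert, the proliferation genes summed to 35.1 to 50.9 CPM in p21Tert and to 31.9 to 53.8 CPM in p21TertCi, so those ranges overlapped. All 5 macrophage markers had a lower fitted level in p21Tert livers, with a median log2 fold change of -1.52 and none past the edgeR test, and their sum was 881 CPM in L981 against 93.4 to 226 CPM in the other 5 livers. The part of these genes in the difference of the members was not tested. The study's methods name a correction for sequencing run, and the run of each library is not given in the sources used here, so its part in the difference between genotypes was not tested either.

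Between tumor and liver, no member passed edgeR's test with all libraries in the fit. For all 6 tumors against all 6 livers, 6 members had a higher and 4 a lower fitted level, the median log2 fold change was 0.05 against 0.01 over all genes, and none passed by edgeR, whereas 10.7% of the 13822 genes did. At an unadjusted p under 0.05 there was 1 member, Tep1, beside 26.2% of genes, and DESeq2 called 0 members and 17.4% of genes. In the same comparison all 9 proliferation genes tested had a higher fitted level in tumors and 6 passed, with a median log2 fold change of 2.21, and 1 of 4 endothelial markers, Pecam1, passed (1.59, edgeR adjusted p = 0.0179). The 2 groups overlapped for all 10 members, and 5.11% of genes had no overlap. The values for Gar1 and Nhp2 were 0.56 ± 0.36 and 0.42 ± 0.31 on the log2 scale. Tep1 (chr14:50824059-50870560), a large RNA-binding protein shared by telomerase and vault particles, had 17.0, 21.02, 24.6 and 28.6 CPM in the p21Tert livers L961, L663, L941 and L992 and 33.9 and 23.6 CPM in the p21TertCi livers L981 and L984. It had 24.2, 52.8, 29.1 and 31.5 CPM in the p21Tert tumors T662, T663, T941 and T992 and 38.0 and 30.2 CPM in the p21TertCi tumors. It was higher in the tumor in 6 of 6 mice, by 1.10 to 2.51 fold. Its log2 fold change was 0.46 ± 0.21 (edgeR adjusted p = 0.182, or 0.119 with the mouse as a block). The highest fold was that of T663, and the next was 1.42, for T662 beside L961. The study reports extensive rearrangement in T663 of the chromosome that carries Tep1. The part of this rearrangement in the Tep1 level was not tested.

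Wrap53 and Nop10, 2 of the 4 members with a lower fitted level in tumors, passed the test only where the 1 tumor above its paired liver was left out. Leaving out the contrary tumor strengthens a change by itself, so these fits are no further evidence of it. Wrap53 (chr11:69561758-69580255), which directs telomerase to Cajal bodies, had a log2 fold change of -0.43 ± 0.22 (edgeR adjusted p = 0.230) and was lower in the tumor in 5 of 6 mice. Without T663, the exception, where it was at 15.6 CPM against 6.81 to 10.2 in the other tumors, it passed (-0.61, edgeR adjusted p = 0.0439, with 11.1% of genes). Nop10 had -0.29 ± 0.17 (edgeR adjusted p = 0.287) and was lower in the tumor in 5 of 6 mice, the exception being T662 at 70.9 CPM, above the 37.0 to 47.7 CPM of the other tumors and the 51.0 to 66.9 CPM of the livers. It passed without that tumor (-0.46, edgeR adjusted p = 0.0287, with 14.2% of genes) and, with T662 and L961 both left out, with the 5 remaining mice as a block (-0.47, edgeR adjusted p = 0.0381, with 13.4% of genes). On the same 5 mice with no block its adjusted p was 0.0512 (8.76% of genes passed), and with all 6 mice as a block it was 0.180. Wrap53 begins next to Trp53 on the opposite strand.

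Within p21Tert mice alone, 3 members reached an unadjusted p under 0.05, all higher in tumors, beside 23% of genes. They were Gar1 (0.69 ± 0.25 on the log2 scale, edgeR adjusted p = 0.128), Nhp2 (0.58 ± 0.24, adjusted p = 0.171) and Tep1 (0.57 ± 0.26, adjusted p = 0.215, or 0.30 on the log2 scale without T663). By edgeR 0 members passed, whereas 6.49% of the 15182 genes did. With the block over all 6 mice 8.61% of genes passed. On the 5 mice left without T662 and L961, 4.3% passed with the block and 2.01% with no block. DESeq2 called 1 member, Gar1 (adjusted p = 0.0440), and 13.9% of genes. Gar1 was also the only member without overlap, against 15.4% of genes. Gar1 and Nhp2 were both higher in the tumor in 5 of 6 mice, and the exception was the mouse of L984 and T984 for both.

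Within p21TertCi mice, with 2 tumors and 2 livers, 0 members passed by edgeR or DESeq2, where 0% of genes did by edgeR and 2.47% by DESeq2, and 0 members had an unadjusted p under 0.05, where 10.7% of genes did. The log2 fold changes ran from -0.70 ± 0.39 for Wrap53 to 0.45 ± 0.62 for Tert. There was no overlap for 5 members, Tert and Dkc1 higher in tumors and Nop10, Wrap53 and Ruvbl1 lower, but 43.7% of all genes were separated in this way. The tumor-to-liver change of Nhp2 exceeded that of p21TertCi mice by 0.81 ± 0.41 in p21Tert mice, and that of Gar1 by 0.78 ± 0.43, in the test of the interaction of genotype and tissue (edgeR adjusted p = 1.00 for both). No member passed this test by edgeR or DESeq2, where 0% of genes did by edgeR and 0.0659% by DESeq2. Nor did any member reach an unadjusted p under 0.05, against 3.66% of genes.

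The remaining members were Naf1 and Parn. Naf1 (chr8:66860217-66890564), which delivers the H/ACA core proteins to nascent RNA, was between 4.13 and 7.19 CPM in all libraries, and Parn (chr16:13537960-13668170), the deadenylase that trims the Terc 3′ end, between 15.5 and 23.4 CPM. Their edgeR log2 fold changes in the 6 comparisons were all within 0.20 of 0, and under the alternatives they ran from -0.36 to 0.42 for Naf1 and from -0.42 to 0.35 for Parn. Reads of some members could be shared with similar sequences. Ruvbl1 matches the processed pseudogene Gm5837 over 1359 bases at 99.3% identity and Naf1 matches Gm2027 over 1440 bases at 92.4%, and Dkc1, Gar1 and Nhp2 have shorter pseudogene matches of 336 to 469 bases. The ends of Dkc1 and Nhp2 overlap Mpp1 and Rmnd5b on the opposite strand, and Tep1 overlaps the antisense gene Gm26782, while the strand setting of the counting is not given in the sources used here.

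Around the 10 members, 15 further genes of telomerase RNA processing, assembly and regulation were examined. Of these, 0 passed between all tumors and all livers by edgeR (7 higher, 8 lower, median log2 fold change -0.01 against 0.01 over all genes), beside 10.7% of all genes. Within p21Tert mice 1 of the 15 passed, beside 6.49% of all genes. This was Pif1, a helicase that removes telomerase from DNA ends, which the study itself had named from a larger set that includes these samples. Pif1 was at 5.45, 6.09, 5.34 and 4.26 CPM in the p21Tert tumors T662, T663, T941 and T992 and at 0.462 and 0.170 CPM in the p21TertCi tumors T981 and T984. Its livers had 0.161 to 1.13 CPM in p21Tert mice and 0.0485 to 0.420 CPM in p21TertCi mice, from 1 to 16 counts. It rose in p21Tert tumors with a log2 fold change of 2.87 ± 0.66 (edgeR adjusted p = 0.0278), where 7 of 10 proliferation genes also rose and all 10 had a higher fitted level (median 2.94). Without L961, L663 or L941 or T941 the adjusted p was 0.0658, 0.0884, 0.0638 or 0.0552. Between the tumors of the 2 genotypes the log2 fold change was 4.01 ± 0.94 (edgeR adjusted p = 0.214), with at most 9 counts in a p21TertCi tumor. Terc itself was at 0.103 to 1.22 CPM, from 2 to 34 counts, in libraries selected for poly(A) RNA, which mature Terc lacks. Next by p, for all tumors against all livers, the chaperone Hsp90aa1 had a log2 fold change of 0.43 (edgeR adjusted p = 0.217), the poly(A) polymerase Papd5 -0.24 (adjusted p = 0.271) and the ubiquitin ligase Stub1 -0.34 (adjusted p = 0.317).

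Of the 8 subunits of the TRiC chaperonin, which folds Wrap53, 0 passed between tumors and livers by edgeR (5 higher, 3 lower, median 0.02), beside 10.7% of all genes. The smallest p values belonged to Cct4 (0.34, edgeR adjusted p = 0.164), Cct5 (0.41, 0.170), Tcp1 (-0.49, 0.171) and Cct2 (0.16, 0.444). Of the 9 box C/D snoRNP proteins and R2TP partners, the sister particle of the H/ACA proteins, 1 rose and 0 fell (4 with a higher and 5 with a lower fitted level, median -0.21), beside the 10.7% of all genes that passed. Nop58, a core protein of the particles that guide 2′-O-methylation, rose by 0.81 ± 0.21 on the log2 scale (edgeR adjusted p = 0.0288), from 13.8 ± 4.3 CPM (SD, n = 6) in livers to 24.3 ± 4.2 CPM (SD, n = 6) in tumors. Leaving out L961, L663 or L941 or T941, T992 or T981 brought its adjusted p to between 0.0527 and 0.0704. The next were Nop56 (0.40, adjusted p = 0.268), Fbl (-0.60, adjusted p = 0.337) and Rpap3 (0.51, adjusted p = 0.351). Between the tumors of the 2 genotypes none of the 9 passed by edgeR, as did 0% of all genes. The values of Nop56 (0.96 ± 0.20, edgeR adjusted p = 0.213) and of the methyltransferase Fbl (1.07 ± 0.39, adjusted p = 0.361) were positive. The fitted values were higher in p21Tert for 5 of the 9 and lower for 4, from -0.76 for Rpap3 to 1.07 for Fbl, with a median of 0.05.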

How the data were processed

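Livers and liver tumors of p21Tert and p21TertCi mice were profiled by RNA-seq of poly(A)-selected total RNA. The authors aligned the reads with Subread-align to mm10 with an added mCherry sequence and deposited raw counts per gene symbol made with featureCounts 1.6.4. The annotation release and the strand setting are not given in the sources used here. The members and gene lists were chosen with earlier results of these data known.

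Counts were tested with the quasi-likelihood test of edgeR 4.0.16 (R 4.3.3) after TMM scaling and its filter on low counts, with Benjamini-Hochberg adjustment over all genes tested and a threshold of 0.05. All tumors were compared with all livers by tissue alone. The other 5 comparisons came from 1 model of the 4 groups over the 12 libraries. The fits were tested on simulated data. Levels are CPM, and levels between genes are per kilobase of the union of GENCODE M21 exons. Tert and Cdkn1a were related by two-sided exact permutation tests on log2(CPM + 1). Alternatives were DESeq2 1.42.0, RLE scaling, every gene with at least 1 count, genotype as a term, only the compared groups, each library left out, the mouse as a block, and, added after seeing the data, only the 5 mice of shared number and counts summed by mouse. Named genes were the members, Cdkn1a, the 4 of smallest p of each related list in the first comparison and the 5 most like Tert. Trp53 and Myc were in the rule and did not pass.

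Numbers in the titles pair tumor and liver of 5 mice, since they name the animal. The correlation of the deviations of a mouse's liver and tumor from their group means was 0.04 to 0.55 (0.19 for T662 with L961), and the value of both p21TertCi mice is the same by construction. The study's methods name a correction for sequencing run, but the labels do not give the run of a library, so none was made here. Titles of p21TertCi libraries are in another format than those of p21Tert, among which those of mouse 992 differ again. The fits with no block treat the 12 libraries as independent, although tumor and liver of a mouse are paired. In the model of the 4 groups all groups share 1 estimate of the spread. The p21TertCi groups hold 2 animals each, so their p-values borrow the spread of the p21Tert groups. Similar transcripts were searched with blastn among GENCODE M21 transcripts (at least 250 matching bases at 90% identity).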

Additional observations from a re-analysis of the deposited data

Results flagged for a closer look

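Samples far from the rest of their group were looked for in 40 groups of a member (4 p21Tert livers, 4 p21Tert tumors, 6 tumors and 6 livers for each of 10 members), where chance flags about 1 in 20. Nop10 was at 70.9 CPM in T662, apart from the other 5 tumors. Naf1 was at 4.13 CPM in L992, below the other 5 livers.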

How the results depend on the processing

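Over the 10 members and 6 comparisons, 1070 log2 fold changes were refitted under an alternative. Of these, 6 came to pass the threshold and 55 changed sign. The sign changes were in 20 of 60 cases and 9 members, all with a reported value within 0.23 of 0. Those of Tert were at -0.12 with the replicate block, -0.24 without T992 and -0.02 without T984 for all tumors against all livers, and within p21Tert mice at 0.10 without T663 and 0.13 without the pair of T662 and L961. Leaving out 1 library, Tert ranged from -0.24 to 0.25 in the first and from -0.90 to 0.10 in the second. The replicate block over 5 mice, which also leaves out T662 and L961, called 1 member between all tumors and all livers (Nop10) and 649 genes within p21Tert mice, where the same 5 mice with no block, a fit added after seeing the data, called 0 members and 303 genes. The block over all 6 mice called 0 members in the 4 comparisons it was fitted to and 1307 genes within p21Tert mice (986 with no block). DESeq2 called 1 member within p21Tert mice (Gar1) and 2 between tumors of the 2 genotypes (Gar1 and Nhp2). Leaving out 1 library gave 0 to 1 members called between all tumors and all livers.

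DESeq2 called 2407 genes (edgeR 1476) for all tumors against all livers, 2109 (986) within p21Tert mice, 375 (0) within p21TertCi mice, 10 (0) for the interaction, 42 (0) between livers and 372 (0) between tumors of the genotypes. RLE scaling called 1 gene within p21TertCi mice, and every gene with at least 1 count gave 2 there and 3 between tumors. Leaving out 1 library gave 863 to 1988 genes for all tumors against all livers (863 without L961, 942 without T941), 240 to 1192 within p21Tert mice (240 without L961, 347 without L663, 424 without L941, 587 without T941), 0 to 7 within p21TertCi mice and 0 to 2 between tumors. The causes were not tested. The r of Tert and Cdkn1a ran from 0.44 to 0.93 in tumors (0.93 without T941, exact permutation p = 0.0333) and from -0.27 to 0.77 in livers (0.77 without L961). Of the 5 genes most like Tert by r, 0 were among the 5 by rho, where Lppr3 ranked 6 with the same rho as Armcx1, the last of the 5. The members had 46 to 1573 counts per library. Terc had 2 to 34 counts, and Pif1 1 to 16 outside the p21Tert tumors, so that counting error weighs on both.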
